A study of Rattus norvegicus with 33 samples.

Results

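The oxidative stress and redox subsystems of the rat cecal metagenome were taken as every functional subsystem whose name holds oxidative stress, glutathione, superoxide, peroxid, thioredoxin or redox. A subsystem is a named set of gene families that carry out 1 pathway or process, and its value counts the DNA reads assigned to it. The rule found 15 subsystems of 1057. Glutathione stood in 8 names, redox in 7, oxidative stress in 2 and thioredoxin in 1, while superoxide and peroxid stood in none. For 2 of the 15, Energy-conserving hydrogenase (ferredoxin) and Pyruvate:ferredoxin oxidoreductase, the letters of redox stand inside the word ferredoxin, so the rule chose them by spelling and not by an oxidative stress label. The other 13 carry the name of a thiol or redox system themselves. Of the 15, 11 reached a normalized value of 10 in at least 7 rats, as did 650 of all subsystems.

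The DNA came from the cecal contents of 33 rats aged 14 to 15 weeks, collected at the end of the experiment. The groups were 10 females and 7 males of the spontaneously hypertensive rat (SHR), inbred rats whose blood pressure becomes high with age, and 9 females and 7 males of the Wistar Kyoto rat (WKY), the related strain with normal pressure that served as control. The labels give no treatment, cage, litter or sequencing batch, and each strain carried its own run of rat numbers, so processing order and strain cannot be told apart. Each library came from a rat of its own, and the spread between rats is what the p-values rest on.

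Glutathione is a small peptide of glutamate, cysteine and glycine that many bacteria, above all Proteobacteria and cyanobacteria, hold as their main free thiol, while many anaerobes of the gut make little or none. Glutathione peroxidases spend it to reduce peroxides, glutathione reductase restores it, and glutaredoxins use it to reduce protein disulfides. Thioredoxin and its reductase do parallel work and are found in nearly all bacteria. Catalases and superoxide dismutases remove reactive oxygen directly. Strict anaerobes lean on ferredoxin, a small iron-sulfur protein that carries electrons in fermentation.

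The values describe genes present in the community, not their expression. Fewer bacteria that carry a gene and fewer copies of it per bacterium cannot be told apart, and all values are relative to the rest of the library. Reads assigned to functions ran from 95952 to 489862 per library, with medians of 214911 and 315719 for SHR females and males and of 396240 and 382975 for WKY females and males. All 6 libraries under 200000 reads were SHR, 4 of females and 2 of males. They lay in a consecutive run of rat numbers, that of SHR females 5 to 10 and SHR males 3 and 4. Libraries of that run had 95952 to 226735 reads, and the other SHR libraries had 298212 to 395417. What set this run apart was not tested. As a check of the labelled material, 5 genera common in the rodent gut, Bacteroides, Muribaculum, Lactobacillus, Romboutsia and Akkermansia, together took 14.6% to 45.7% of reads in every library.

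Together the 15 subsystems took 1.06 ± 0.0489% of function reads in SHR females (SD, n = 10) and 1.13 ± 0.0707% in WKY females (n = 9). The share was 1.079 ± 0.0373% among SHR males and 1.15 ± 0.113% among WKY males (n = 7 each). Between 1116 and 5538 reads per library stood behind these shares, and whether a read can count under more than 1 subsystem is not known, so the sum may count some reads more than once. The WKY means were the higher ones, but as a share of all reads assigned to taxa the order turned, with 0.732% and 0.739% for SHR females and males and 0.697% and 0.702% for WKY females and males. Without the 2 ferredoxin subsystems the share of function reads was 0.840% in SHR females and 0.859% in SHR males. For WKY females and males it was 0.890% and 0.949%. None of these shares was tested.

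Of the 15 subsystems, 10 had at least 2 reads in every library and carry the results, and 5 were too sparse to describe a level. The spread between rats within a group differed widely among the 10. Energy-conserving hydrogenase (ferredoxin) had a within-group coefficient of variation of 72.6%, where counting error alone gives 17.2%. Glutathione: Redox cycle followed with 46.2% against 20.5% from counting, and Glutathione: Biosynthesis and gamma-glutamyl cycle with 19.98% against 6.29%. The other 7 subsystems lay between 8.29% and 12.7%, with 4.15% to 10.4% from counting. Reads of gene families in different subsystems can come from the same bacteria, so the subsystems are not independent of each other.

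Between SHR and WKY females, 2 of the 15 subsystems passed the test and both were lower in SHR, Energy-conserving hydrogenase (ferredoxin) and Glutathione: Biosynthesis and gamma-glutamyl cycle. Of these, the hydrogenase was among the 15 only by the spelling of ferredoxin. The same test called 8.42% of all 1057 subsystems in females, 3.69% higher and 4.73% lower in SHR. Between the males, 0 of the 15 passed with limma, against 2.46% of all subsystems (0.662% higher and 1.8% lower). Of the 15, 3 had an unadjusted limma p under 0.05 in males, as did 203 of all 1057. For males edgeR called 0 of the 15 and 37 of all, and DESeq2 called 1 of the 15 and 77 of all. Averaged over the sexes, the same 2 subsystems were called lower, where 17.2% of all subsystems were called, 6.72% higher and 10.5% lower. These counts are close to the background, so they say nothing particular to the redox subsystems as a group. A call here means an adjusted p under 0.05 by limma, a linear model with a shared estimate of the spread, fitted to log2(normalized reads + 1) of all 33 rats, with Benjamini-Hochberg adjustment over all 1057 subsystems.

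The median difference, SHR minus WKY on that log2 scale, was -0.13 over the 15 subsystems in females, -0.11 in males and -0.10 averaged over the sexes. Over all subsystems it was -0.04, -0.0015 and -0.02. Among the 10 subsystems with reads in every library, 9 lay below 0 and 1 above in females, and 8 below and 2 above in males. Their median was -0.14 in females and -0.09 in males. All subsystems that reached a normalized value of 10 in at least 7 rats had medians of -0.02 and -0.01. The share of all subsystems below 0 was not counted, so the signs describe the 10 only. Apart from the 2 called subsystems the differences of the 10 did not pass the test, and the males' values rest on 7 rats of each strain.

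Glutathione: Biosynthesis and gamma-glutamyl cycle covers the ligases that build glutathione from its amino acids and the transpeptidase that takes it apart. It was lower in SHR females, at 218 ± 31.5 normalized reads (SD, n = 10), than in WKY females, at 295 ± 38.1 (n = 9). In SHR females the lowest rat had 155, the median was 221 and the highest had 254 normalized reads, and in WKY females these were 237, 295 and 356. All 10 SHR females lay below the WKY median and 7 lay below the lowest WKY female, so the groups overlapped only at their edges. The log2 difference was -0.44 ± 0.12 (SE), or 0.737 times the WKY level on this scale, with a limma adjusted p of 0.0146. It was called under all 43 settings tried, which include leaving out each rat, with adjusted p between 0.00603 and 0.0361. Without the 6 shallow libraries the difference was -0.47 with an adjusted p of 0.0279.

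In males the same glutathione subsystem stood at 243 ± 30.5 normalized reads in SHR (n = 7) and 321 ± 96.5 in WKY (n = 7). SHR males ran from 194 over a median of 249 to 278 normalized reads, and WKY males from 235 over 279 to 483. All 7 SHR males lay below the WKY median, and 2 lay below the lowest WKY male. The log2 difference of -0.36 ± 0.13 (SE) had a limma adjusted p of 0.122 and did not pass, and of the 43 settings DESeq2 alone called it, with an adjusted p of 0.0489. The difference between the female and the male strain effect was -0.08, with a 95% interval from -0.44 to 0.28 and a limma adjusted p of 0.973, so a failure to pass in males does not show that the sexes differed. Averaged over the sexes the log2 difference was -0.40 ± 0.088 (SE), 0.757 times, with a limma adjusted p of 0.00236, and it was called under all 42 settings.

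The WKY males were spread by 2 rats. WKY male 5 had 483 and WKY male 6 had 434 normalized reads of glutathione biosynthesis, while the other 5 WKY males had 235 to 285. The same 2 rats had the highest values of their group in Oxidative stress, at 783 and 755 normalized reads where the others had 528 to 552, in Glutathione: Redox cycle, at 58.9 and 56.0, and in Thioredoxin-disulfide reductase, at 294 and 283. They also held the highest shares of Romboutsia among WKY males, at 9.85% and 17.03% of reads, and the part of these bacteria in the values was not tested. In WKY males 5 and 6 the 15 subsystems together took 1.31% and 1.30% of function reads, where WKY males ran from 1.03% to 1.31%. As a share of reads assigned to taxa they took 0.697% and 0.619%, where WKY males ran from 0.619% to 0.767%. The high summed share of these 2 rats was thus seen against function reads only. Without WKY male 5 the male strain difference in glutathione biosynthesis was -0.26, and without WKY male 6 it was -0.28, neither called by limma.

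**Figure D1:**
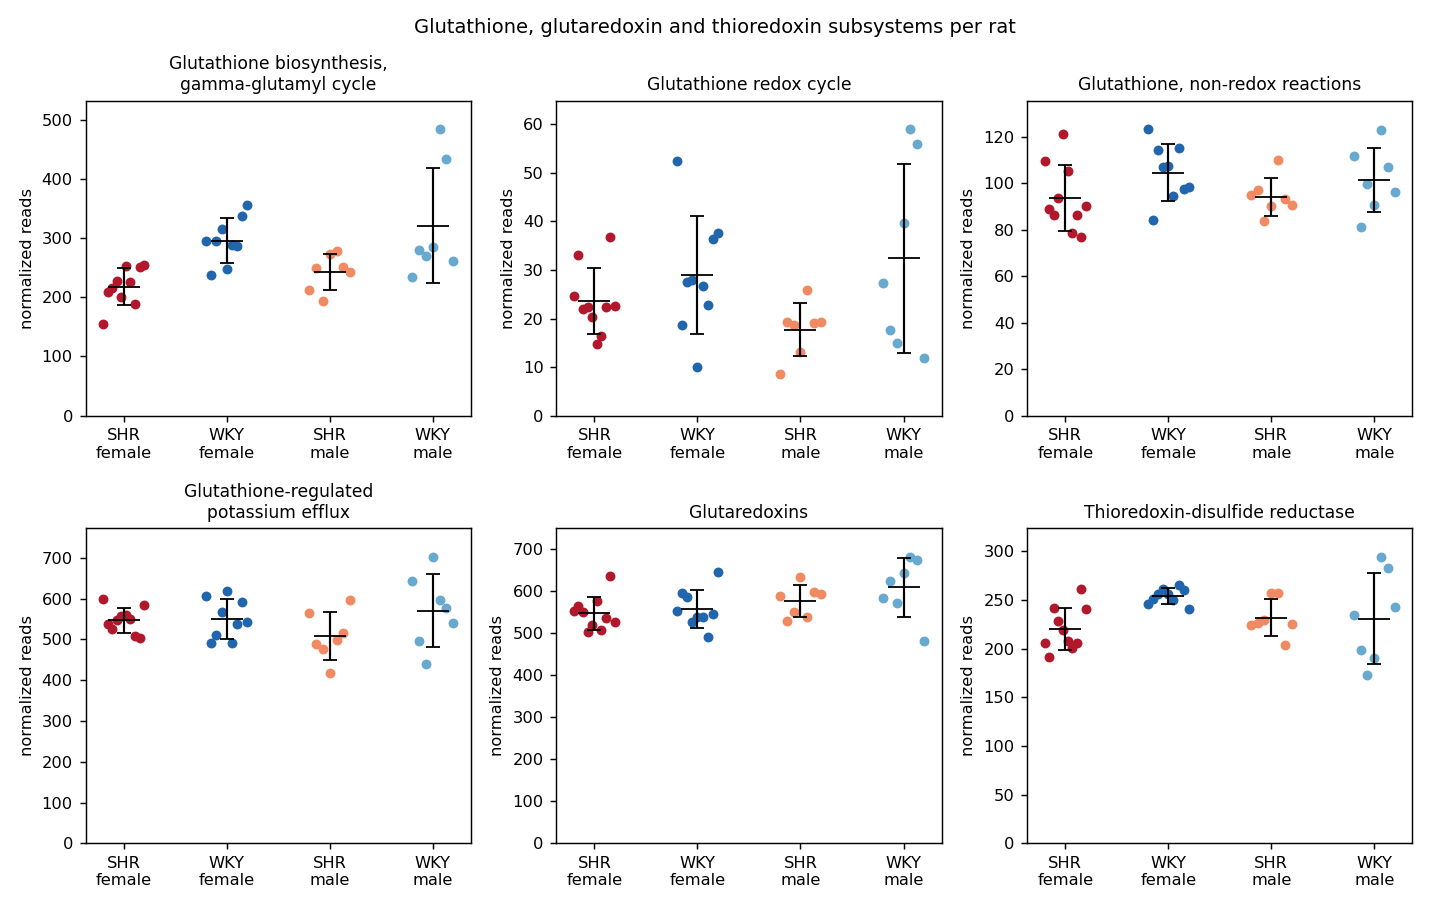
Normalized reads (linear axis from 0) of the glutathione, glutaredoxin and thioredoxin subsystems in each rat; every point is 1 rat of the 4 groups, the long bar is the group mean and the error bar is 1 SD. Glutathione biosynthesis is lower in SHR females than in WKY females, and 2 WKY males stand above the rest of their group in glutathione biosynthesis, the redox cycle and thioredoxin reductase.

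Glutathione: Redox cycle holds the peroxidases that oxidise glutathione and the reductase that restores it. It had 23.5 ± 6.80 normalized reads in SHR females, 28.9 ± 12.2 in WKY females, 17.7 ± 5.48 in SHR males and 32.4 ± 19.5 in WKY males. SHR males ran from 8.55 over a median of 19.1 to 25.96, and WKY males from 11.9 over 27.4 to 58.9 normalized reads. All 7 SHR males lay below the WKY median, but the groups overlapped. The log2 difference was -0.22 in females and -0.67 in males, with limma adjusted p of 0.681 and 0.243. Averaged over the sexes it was -0.44 ± 0.21 (SE), with a limma adjusted p of 0.141 and a call in 1 of 42 settings, DESeq2, at 0.041. Only 7 to 74 reads per library stood behind these values.

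Glutathione: Non-redox reactions covers transferases that attach glutathione to other molecules and the glyoxalases that clear methylglyoxal. Its means were 93.7 ± 14.2 normalized reads in SHR females, 105 ± 12.1 in WKY females, 94.2 ± 8.11 in SHR males and 101 ± 13.9 in WKY males. In females 8 of 10 SHR rats lay below the WKY median, and in males 6 of 7. The log2 differences of -0.16 in females and -0.10 in males did not pass, with limma adjusted p of 0.272 and 0.649, and neither did the average of -0.13, at 0.198.

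Glutathione-regulated potassium-efflux system and associated functions names the Kef channels, which glutathione holds shut and its adducts with toxic electrophiles open. It was at nearly one level in females, 547 ± 30.5 normalized reads in SHR and 550.3 ± 48.3 in WKY, with a log2 difference of -0.0051, a 95% interval from -0.15 to 0.14 and a limma adjusted p of 1. The sign of so small a difference turned under other settings. In males SHR had 509 ± 58.7 and WKY 571 ± 88.5 normalized reads, a log2 difference of -0.16 with a limma adjusted p of 0.284. Glutaredoxins, the small disulfide reductases that draw on glutathione, had 547 ± 38.9 normalized reads in SHR females, 558 ± 45.2 in WKY females, 576 ± 37.6 in SHR males and 609 ± 70.0 in WKY males. Their log2 differences were -0.03 in females and -0.07 in males, with limma adjusted p of 0.858 and 0.576. The 95% intervals, -0.14 to 0.09 in females and -0.21 to 0.06 in males, leave room for small differences either way.

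The strain difference in glutathione genes that passed the test was therefore that of the biosynthesis subsystem, while the subsystems that use glutathione lay at or below the WKY level without passing. The difference between biosynthesis and the other glutathione subsystems was itself not tested.

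Thioredoxin-disulfide reductase recharges thioredoxin with electrons from NADPH. SHR females had 220.1 ± 21.98 normalized reads and WKY females 254 ± 7.86, the least scattered group of this subsystem. SHR females ran from 192 over a median of 214 to 261, and WKY females from 240.4 over 256 to 265. Of the 10 SHR females, 9 lay below the WKY median and 7 below the lowest WKY female. The log2 difference was -0.21 ± 0.079 (SE), with an unadjusted p of 0.0116 and a limma adjusted p of 0.0885, so it missed the threshold. It was called in 2 of 43 settings, at an adjusted p of 0.0116 when females alone were fitted and of 0.0428 without SHR female 9. In males the means were 232 ± 19.2 in SHR and 231 ± 46.3 in WKY, with a log2 difference of 0.03 and a limma adjusted p of 0.942. The female and male strain effects differed by -0.24, with a 95% interval from -0.48 to 0.0091 and a limma adjusted p of 0.696.

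Oxidative stress is the subsystem of catalases, superoxide dismutases and the regulators that answer to peroxide. It had 532 ± 31.8 normalized reads in SHR females and 576 ± 42.3 in WKY females, where 9 of 10 SHR rats lay below the WKY median. SHR males had 541 ± 41.6, running from 497 over a median of 534 to 624, and WKY males 606 ± 112, running from 528 over 546 to 783. The log2 difference was -0.11 in females, with a limma adjusted p of 0.309, and -0.15 in males, with 0.305. Averaged over the sexes it was -0.13 ± 0.052 (SE), with an unadjusted p of 0.0169 and a limma adjusted p of 0.0756, so it did not pass. It was called in 1 of 42 settings, without SHR male 5, at an adjusted p of 0.046. In males the difference shrank to -0.08 without WKY male 5 and to -0.09 without WKY male 6.

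Redox-dependent regulation of nucleus processes is a subsystem named after nuclear redox control, although bacteria have no nucleus, and what its reads encode is not given in the sources used here. It had 363 ± 27.4 normalized reads in SHR females, 334 ± 33.5 in WKY females, 390.1 ± 34.6 in SHR males and 399 ± 26.2 in WKY males. In females it was the single one of the 10 subsystems with a mean above that of WKY, by a log2 difference of 0.12 that did not pass, with a limma adjusted p of 0.204. In males the log2 difference was -0.03, with a limma adjusted p of 0.845.

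The hydrogenase subsystem, Energy-conserving hydrogenase (ferredoxin), covers membrane-bound enzymes that pass electrons from ferredoxin to protons, give off hydrogen gas and pump ions. It had the widest strain difference in females among the 15 subsystems, with 19.003 ± 15.4 normalized reads in SHR females and 69.8 ± 31.01 in WKY females. SHR females ran from 1.74 over a median of 15.2 to 56.2, and WKY females from 34.7 over 65.0 to 113. All 10 SHR females lay below the WKY median, and 9 lay below the lowest WKY female, the exception being SHR female 10 at 56.2. The log2 difference was -2.07 ± 0.45 (SE), 0.238 times the WKY level on this scale, with a limma adjusted p of 0.00358. It was called under all 43 settings, with log2 differences from -2.28 to -1.76, and was -2.27 with an adjusted p of 0.01003 without the 6 shallow libraries. SHR females had 2 to 25 reads per library here and WKY females 44 to 127.

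Among males the hydrogenase genes were low in both strains, at 16.8 ± 6.08 normalized reads in SHR and 27.6 ± 36.1 in WKY. SHR males ran from 6.84 over a median of 17.04 to 24.7, and WKY males from 5.23 over 11.3 to 106. WKY male 3 alone had 106, and the next highest WKY male had 37.3. The log2 difference was -0.06 ± 0.52 (SE), with a 95% interval from -1.13 to 1.003 and a limma adjusted p of 1, and without WKY male 3 it was 0.37, with an adjusted p of 0.716. On the recovered reads it was -0.70 with edgeR and -0.71 with DESeq2, with adjusted p of 0.466 and 0.393, so the size of this uncalled difference depends on the test. The strain effect in females minus that in males was -2.01 ± 0.69 (SE), with an unadjusted p of 0.0065 and a limma adjusted p of 0.426, so the sexes were not shown to differ. Averaged over the sexes the log2 difference was -1.07 ± 0.35 (SE), 0.477 times, with a limma adjusted p of 0.0305. That call was lost without SHR male 1, at an adjusted p of 0.0607, without WKY male 3, at 0.0535, and without WKY male 6, at 0.063.

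Pyruvate:ferredoxin oxidoreductase is the oxygen-sensitive enzyme that splits pyruvate to acetyl-CoA and hands the electrons to ferredoxin. It had 637 ± 41.0 normalized reads in SHR females, 655 ± 65.5 in WKY females, 654 ± 38.9 in SHR males and 587 ± 62.3 in WKY males. All 7 SHR males lay above the WKY male median, and 5 WKY males lay below the lowest SHR male. The log2 difference in males was 0.16 ± 0.067 (SE), with an unadjusted p of 0.0225 and a limma adjusted p of 0.169, and it did not pass. In females it was -0.04, with a limma adjusted p of 0.746, and the difference between the strain effects was -0.20, with a limma adjusted p of 0.643.

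**Figure D2:**
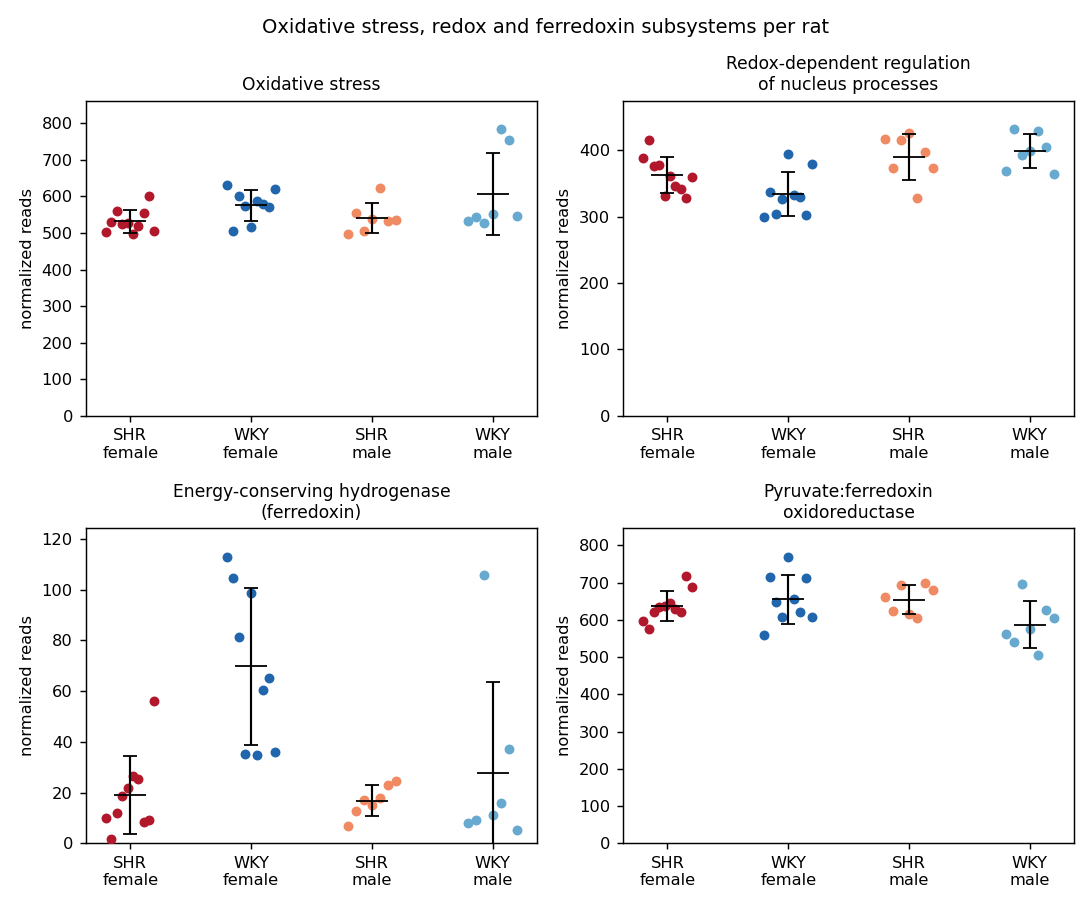
Normalized reads (linear axis from 0) of Oxidative stress, Redox-dependent regulation of nucleus processes and the 2 ferredoxin subsystems in each rat; every point is 1 rat of the 4 groups, the long bar is the group mean and the error bar is 1 SD, which is drawn down to 0 for the hydrogenase in WKY males. Most WKY females stand above SHR females in the hydrogenase, and 1 WKY male stands at 106 above all other males.

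**Figure D3:**
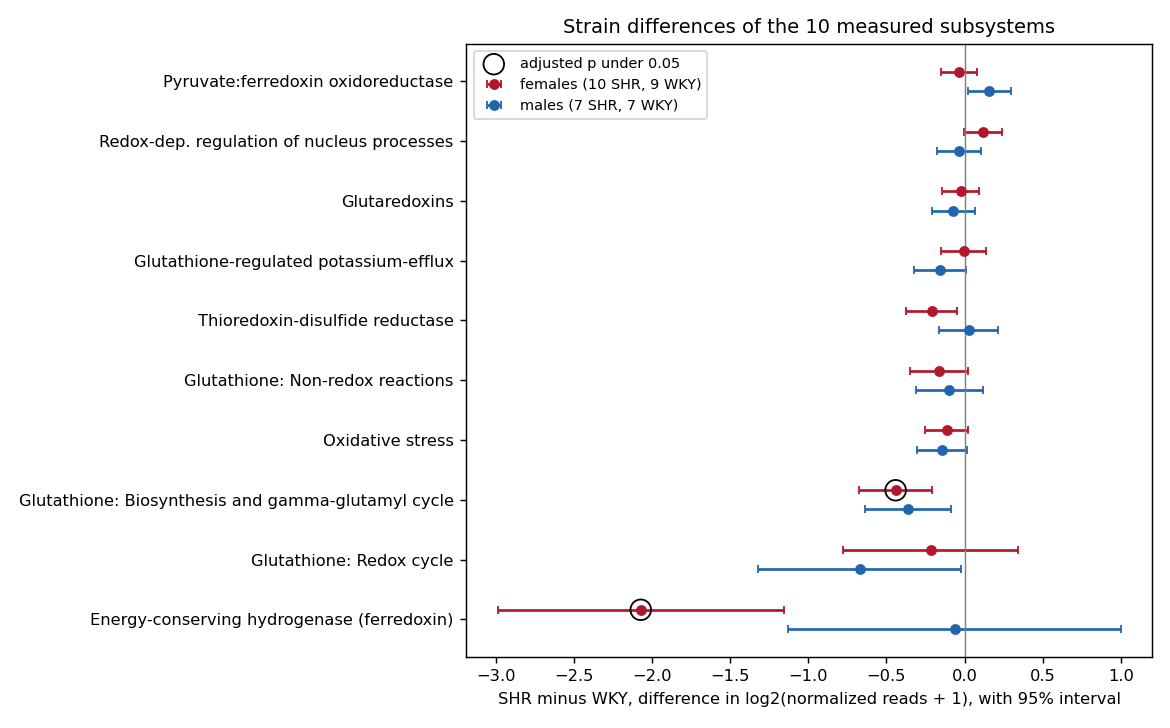
Strain differences of the 10 subsystems with reads in every library, as SHR minus WKY in log2(normalized reads + 1) on the horizontal axis, in females (red) and males (blue); bars are 95% intervals of the limma fit and a ring marks an adjusted p under 0.05. The 2 rings are in females, at -2.07 for the hydrogenase and at -0.44 for glutathione biosynthesis.

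The comparison of the sexes asks whether females and males of a strain carried different amounts of these genes. In SHR, 0 of the 15 subsystems were called by limma, where 0% of all 1057 were. An unadjusted limma p under 0.05 was held by 0 of the 15 and 48 of all. Between the SHR sexes edgeR and DESeq2 each called 0 of the 15 and 0 of all. In WKY, limma called 0 of the 15 against 0.662% of all subsystems. Of the 15, 3 had an unadjusted limma p under 0.05 in WKY, as did 193 of all 1057. Between the WKY sexes edgeR called 1 of the 15 and 34 of all, and DESeq2 called 1 of the 15 and 68 of all. For strain by sex, limma called 0 of the 15 and 0% of all, with 2 and 82 under an unadjusted p of 0.05. There edgeR called 0 of the 15 and 0 of all, and DESeq2 called 0 of the 15 and 1 of all. With so few calls over all subsystems, the lack of calls says nothing particular to the 15.

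Redox-dependent regulation of nucleus processes was lower in WKY females, from 299.7 over a median of 329 to 394 normalized reads, than in WKY males, from 365 over 399.7 to 432. All 9 females lay below the male median and 7 lay below the lowest male. The log2 difference, female minus male, was -0.26 ± 0.066 (SE), with a limma adjusted p of 0.0521, just outside the threshold, and 18 of 43 settings called it. It was called by edgeR, with an adjusted p of 0.0257, and by DESeq2, with 0.00967. The hydrogenase lay the other way, with all 9 WKY females above the WKY male median, a log2 difference of 1.88 ± 0.49 (SE) and a limma adjusted p of 0.0524. It was called in 13 of 43 settings, and without WKY male 3 the difference was 2.32, with an adjusted p of 0.00521. Pyruvate:ferredoxin oxidoreductase had a log2 difference of 0.16 between WKY females and males, with a limma adjusted p of 0.153. In SHR the same 3 subsystems differed by -0.10, -0.13 and -0.04 on the log2 scale, with limma adjusted p of 0.838, 1 and 0.950.

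The 5 sparse subsystems gave no call in any comparison. Regulation of Oxidative Stress Response had 237 reads in all, in 32 of 33 libraries, with means of 5.83 to 7.38 normalized reads in the 4 groups. Utilization of glutathione as a sulphur source had 167 reads in 31 libraries, with means of 3.72 to 5.57. Mycothiol, which actinobacteria make in place of glutathione, had 45 reads in 24 libraries. Glutathione-dependent pathway of formaldehyde detoxification had 6 reads in 5 libraries and none among the 2464876 function reads of SHR females, which allows a share of up to 0.000122%. The glutathione-dependent thiol reductase linked to lysine biosynthesis had 1 read in all 33 libraries, in WKY male 6. The depth cannot show strain differences in these 5 subsystems, and the counting limit covers counting error only.

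The authors' deposited table for females lists 85 subsystems with an adjusted p up to 0.00955, and 3 of them are among the 15. They are Energy-conserving hydrogenase (ferredoxin), with a log2 fold change of 1.91 and an adjusted p of 4.93e-05 in the authors' deposited table, Glutathione: Biosynthesis and gamma-glutamyl cycle, with 0.45 and 8.68e-05, and Thioredoxin-disulfide reductase, with 0.22 and 0.00193. For all 85 the sign was opposite to that of SHR minus WKY here, so that table runs as WKY over SHR. The authors' deposited table for males lists 16 subsystems and none of the 15. The authors' deposited table of their model over all rats lists 148, among them the hydrogenase, glutathione biosynthesis and Redox-dependent regulation of nucleus processes, with log2 fold changes of 0.56, 0.56 and 0.12 and adjusted p of 2.15e-04, 3.22e-04 and 0.00331. Its coefficient is not named. Of its 148 signs, 139 were opposite to the averaged difference of SHR minus WKY here and 9 were the same, so its direction was not settled.

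Neighbouring subsystems were drawn from 6 lists of names, around reactive oxygen and thiols, oxygen respiration, anaerobic electron carriers, other stress responses, sulfur amino acids and thiol supply, and NAD and pentose phosphate supply. Of the 5 subsystems around reactive oxygen and thiols, 2 were called higher in SHR averaged over the sexes and none lower, where 6.72% of all subsystems were called higher and 10.5% lower. The median log2 difference of the 5 was 0.02, against -0.02 over all subsystems. Counts in lists of this size are read as descriptions, with nothing particular to a list drawn from them. Bacterial hemoglobins, which bind oxygen and detoxify nitric oxide, had 81.3 ± 19.2 normalized reads in SHR females, 55.6 ± 24.3 in WKY females, 77.3 ± 22.02 in SHR males and 53.2 ± 27.7 in WKY males. All 10 SHR females and all 7 SHR males lay above the median of WKY rats of their sex, and the averaged log2 difference was 0.62 ± 0.17 (SE), with a limma adjusted p of 0.0125. Rubrerythrin, a peroxide-reducing iron protein of anaerobes, was higher in SHR by 0.18 ± 0.062 (SE) on the log2 scale, with a limma adjusted p of 0.0421, though 18 of 42 settings lost that call. Protection from Reactive Oxygen Species, Peptide methionine sulfoxide reductase and Periplasmic disulfide interchange were not called, with averaged log2 differences of -0.13, 0.02 and 0.0015 and limma adjusted p of 0.651, 0.927 and 1.

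Of 16 subsystems of oxygen respiration, 3 were called lower and 1 higher in SHR averaged over the sexes, where 10.5% of all subsystems were called lower and 6.72% higher. Terminal cytochrome d ubiquinol oxidases, which bacteria use to respire at low oxygen, had 161 ± 16.9 normalized reads in SHR females, 228 ± 62.1 in WKY females, 198 ± 42.3 in SHR males and 299 ± 136 in WKY males, and fell by 0.48 on the log2 scale, with a limma adjusted p of 0.00765. Terminal cytochrome oxidases, with nearly the same reads, had an averaged log2 difference of -0.47, and Ubiquinone Menaquinone-cytochrome c reductase complexes one of -1.14, with limma adjusted p of 0.00895 and 0.0353. Both terminal oxidase subsystems were called in all 42 settings, and the reductase complexes in 34 of 42. Soluble cytochromes and functionally related electron carriers rose by 0.16, with a limma adjusted p of 0.0421, though 17 of 42 settings lost that call. Between females alone and between males alone none of the 16 was called by limma, where 8.42% and 2.46% of all subsystems were. Only 7 of the 16 reached a normalized value of 10 in at least 7 rats.

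Of 10 subsystems of anaerobic electron carriers and processes, none was called higher in SHR in any of the 3 strain comparisons, and 1 was called lower in females, 1 in males and 2 in the average. Over all subsystems 4.73%, 1.8% and 10.5% were called lower in these comparisons. Anaerobic respiratory reductases, enzymes that respire on acceptors other than oxygen, had 427 ± 64.8 normalized reads in SHR males and 648 ± 120.2 in WKY males, a log2 difference of -0.59 ± 0.16 (SE) with a limma adjusted p of 0.0345, lost in 9 of 43 settings. Anaerobic Oxidative Degradation of L-Ornithine had 3.53 ± 2.62 in SHR females and 8.95 ± 3.04 in WKY females, a log2 difference of -1.40 ± 0.37 (SE) with a limma adjusted p of 0.0152. Without the 6 shallow libraries it was -0.87, with an adjusted p of 0.0803, and the call was lost. Its averaged log2 difference of -0.79, with a limma adjusted p of 0.0486, was called in 14 of 41 settings.

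Of 19 other stress subsystems, 3 were called higher and 1 lower in SHR averaged over the sexes, beside 6.72% higher and 10.5% lower over all subsystems. Universal stress protein family, small proteins that bacteria make under many stresses, had 15.8 ± 12.3 normalized reads in SHR females, 37.6 ± 21.6 in WKY females, 18.8 ± 7.57 in SHR males and 63.0 ± 48.8 in WKY males, an averaged log2 difference of -1.36 ± 0.28 (SE) with a limma adjusted p of 0.00136. Hyperosmotic potassium uptake was higher in SHR females, at 147 ± 19.1 normalized reads against 105 ± 22.3 in WKY females, and there the 2 groups did not overlap, with a log2 difference of 0.50 and a limma adjusted p of 0.00309. In males the strains were mixed, with 2 of 7 SHR rats below the lowest WKY male and 2 above the highest. All 10 SHR females also lay above every SHR male, though limma called 0% of all subsystems between the SHR sexes. How often groups fail to overlap over all subsystems was not counted. The lack of overlap is therefore given as a description of this subsystem only. Averaged over the sexes, this potassium subsystem was called higher in 32 of 42 settings. Synthesis of osmoregulated periplasmic glucans and Cold shock, CspA family of proteins rose by 0.53 and 0.29 in the average, with limma adjusted p of 0.00201 and 0.0165. Cysteine Biosynthesis, the route to the amino acid that gives glutathione its thiol, rose by 0.28 in the average, with a limma adjusted p of 0.0295, as did its near copy Cysteine Biosynthesis, MCB 432, by 0.26, with 0.0323. They were the 2 called of 9 subsystems of sulfur amino acids and thiol supply, beside 17.2% called and 6.72% called higher over all subsystems. Of 3 subsystems of NAD and pentose phosphate supply, Pentose phosphate pathway, a source of the NADPH that both reductases draw on, fell by 0.13, with a limma adjusted p of 0.0489, and 27 of 42 settings lost that call.

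**Figure D4:**
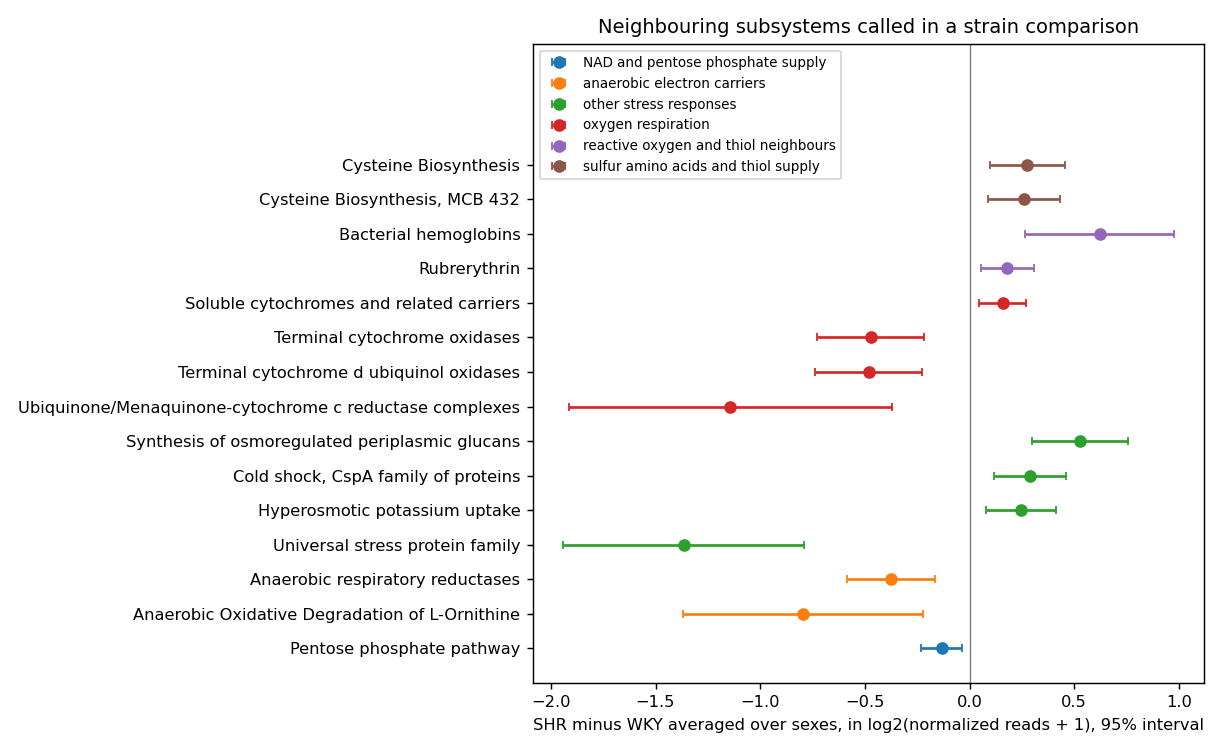
Neighbouring subsystems called between the strains averaged over the sexes, as SHR minus WKY in log2(normalized reads + 1) on the horizontal axis with 95% intervals of the limma fit; colours name the list. Cysteine biosynthesis and bacterial hemoglobins lie above 0, and terminal oxidases and universal stress proteins lie below 0.

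Both called subsystems were set against Akkermansia, Lactobacillus, Bacteroides, Muribaculum and Escherichia across rats, as deviations from the mean of the rat's own group on a log2 scale, which made 10 relations. Glutathione: Biosynthesis and gamma-glutamyl cycle went with Lactobacillus over 33 rats, with Pearson r = 0.477 (permutation p = 0.00408, adjusted over the 10 relations 0.0408) and Spearman rho = 0.514 (permutation p = 0.00262, adjusted 0.0262). Within SHR r was 0.577 over 17 rats and within WKY 0.417 over 16, both given without a test. Without the 2 rats farthest from the median Lactobacillus share, r was 0.431, and its adjusted permutation p of 0.126 no longer passed. Lactobacillus took 3.41 ± 3.87% of reads in SHR females and 8.66 ± 6.85% in WKY females, 5.48 ± 3.85% in SHR males and 10.9 ± 7.92% in WKY males. The other 9 relations did not pass, the 5 of the hydrogenase among them, with adjusted permutation p of Pearson's r from 0.459 to 0.931. With Escherichia, glutathione biosynthesis had a pooled r of -0.0174, which joins -0.588 within SHR and 0.370 within WKY, and the difference between the strains was not tested. Romboutsia was not among the genera compared. Shares within a library depend on each other, and whether Lactobacillus carries these reads was not tested.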

How the data were processed

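Cecal DNA of 33 rats was sequenced in shotgun libraries made with a Nextera kit, per the labels' protocols. The submitters' processing notes name DESeq2, Trimmomatic 0.36, cutadapt 2.6, FastQC 0.11.5 and the rat build Rnor_6.0. How reads were assigned to functions is not given in the sources used here. The authors deposited a signal per subsystem, the read count divided by a size factor of the library. Dividing by the value of 1 read gave whole reads for 100% of the values, within 0.01 read. The authors deposited genus shares in percent of reads, and their own models as log2 fold changes with p-values.

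Group means of strain and sex were fitted to log2(normalized value + 1) of all 1057 subsystems in 33 rats with limma 3.58.1 (trend and robust), and all tests were 2-sided. The added 1 makes log2 differences of low subsystems smaller. Fold changes on this scale compare means of logs, so they can also be larger than the ratio of the group means. Alternatives were pseudocounts of 0.5 and 5, 2 filters on low values, equal totals, edgeR 4.0.16 (TMM) and DESeq2 1.42.0 on the recovered reads, limma without trend and robust, fits of the compared groups alone, leaving out each rat, and, chosen after seeing the data, leaving out the 6 libraries under 200000 reads. Correlations with genera used 100000 permutations within groups. The members and the lists of neighbouring subsystems were chosen with earlier results of these data known. The subsystems named were all members, and of each list those called in any comparison, at most 4 by adjusted p; 3 uncalled neighbours of reactive oxygen were named after their values were seen. Scripts were tested on simulated data. Other tools were R 4.3.3, Python 3.11.15 with scipy 1.17.1, pandas 2.3.3 and numpy 2.4.6, and matplotlib 3.10.9.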

Additional observations from a re-analysis of the deposited data

Results flagged for a closer look

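In 7 of 60 groups of a subsystem, the highest rat stood farther from the others than Dixon's 95% limit allows. A chance rate of about 1 in 20 holds for normally distributed values, and several of these groups hold sparse counts. A group in which only 1 rat has a read is always flagged, and a group without any read never is. The count of 7 can therefore not be compared with that rate, and the flags are given as descriptions. Energy-conserving hydrogenase (ferredoxin) had SHR female 10 at 56.2 normalized reads (25 reads), with the next SHR female at 26.7. It also had WKY male 3 at 106 normalized reads (134 reads), with the next WKY male at 37.3. Utilization of glutathione as a sulphur source had WKY female 6 at 9.45 normalized reads (12 reads). Glutathione analogs: mycothiol had WKY female 2 at 3.73 normalized reads. The remaining 3 rest on 1 or 2 reads each. They are Glutathione-dependent pathway of formaldehyde detoxification in WKY female 9, at 1.45 normalized reads, and in SHR male 7, at 0.773, and the glutathione-dependent thiol reductase of lysine biosynthesis in WKY male 6, at 0.982.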

How the results depend on the processing

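No paired analysis was possible because the labels give no replicate number shared between the groups. The subsystems called in females stayed at 89 within a factor of 1.5 under every alternative, from 61 to 129 when a rat was left out, with 2 to 3 of the 15 among them. In males the 26 became 50 with the filter at a value of 10, 77 with DESeq2 and 2 with the males fitted alone, and ran from 10 to 81 when a rat was left out, lowest without WKY male 6 and highest without WKY male 7. Leaving out SHR male 1 or 2 or WKY male 1, 2, 5, 6 or 7 moved it by over 1.5 times. DESeq2 called 1 of the 15 there. Averaged over the sexes, leaving out a rat gave 135 to 215 subsystems and 1 to 3 of the 15. Between the sexes of SHR and for strain by sex, leaving out a rat gave 0 to 1, and DESeq2 gave 1 for strain by sex. Between the sexes of WKY the 7 became 23 with the filter at 10, 14 with the filter at 1 read, 34 with edgeR, 68 with DESeq2, 1 with WKY alone and 11 without the shallow libraries, and 2 to 74 when a rat was left out. The count moved by over 1.5 times without SHR female 1, SHR male 4, WKY female 1, 6 or 9, or WKY male 1, 2, 3, 4, 5 or 7. There the 15 gave 2 calls with a pseudocount of 5 and with each filter, 1 with equal totals, edgeR, DESeq2, limma without trend and robust, or without the shallow libraries, and 0 to 2 when a rat was left out. Over all subsystems, 9 were called there with a pseudocount of 5, 10 with equal totals and 8 with limma without trend and robust. The cause was not tested.

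The share of the 15 turned with the denominator (0.732%, 0.697%, 0.739% and 0.702% of taxon reads in SHR females, WKY females, SHR males and WKY males). The potassium-efflux difference in females, -0.0051, became 0.015 with edgeR, 0.0047 with DESeq2 and 0.011 without the shallow libraries, and ran from -0.0251 to 0.0164 when a rat was left out. Thioredoxin reductase in males became -0.0027 without the shallow libraries and ran from -0.038 to 0.088. Leaving out a rat also turned the sign of uncalled differences of Glutaredoxins in females (-0.0498 to 0.0011), the hydrogenase in males (-0.31 to 0.37, and -0.70 with edgeR and -0.71 with DESeq2) and Redox-dependent regulation in males (-0.057 to 0.0061). Without the 2 farthest rats, Escherichia's r became 0.0384 with the hydrogenase (from -0.0534) and 0.117 with glutathione biosynthesis (from -0.0174), and Lactobacillus fell to 0.431. The lists of anaerobic carriers gave 0 calls in females with the filter at 10, and 0 in males and 1 in the average with equal totals. The other stress list gave 0 in males with equal totals and 2 with the filter, and the NAD list 0 in the average with equal totals. SHR libraries were the shallower, and the 5 sparse subsystems are limited by depth.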
